A study of Urocitellus parryii with 24 samples.

Results

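SC4MOL, FDPS, FDFT1, and INSIG1 were followed in the liver of the Arctic ground squirrel (AGS, Urocitellus parryii), a small mammal that hibernates through the Alaskan winter. SC4MOL, FDPS, and FDFT1 code for enzymes of cholesterol synthesis, and INSIG1 codes for a protein that senses sterols. They are 4 of the 1329 genes for which a human symbol could be paired with 1 of the 9600 cDNA probes of the array. For each gene, 1 probe is described. RNA from 24 wild-caught animals was hybridized to 24 nylon membranes, 1 animal per membrane.

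Torpid animals were taken in the first part of a torpor bout (early torpor, 4 animals) or near its end (late torpor, 5 animals). Animals that had rewarmed by themselves were taken soon after body temperature had risen (early arousal, 4 animals) or some hours later in the same arousal episode (late arousal, 4 animals). The study pooled these stages as torpor (T, 9 animals) and arousal (A, 8 animals). The 7 animals labelled summer active are the post-reproductive, euthermic, molting animals of the study (P). Winter animals had no food during hibernation, so season, feeding, and, for T, body temperature change together between the states and cannot be told apart. According to the methods, T animals were killed without anesthesia, while A and P animals were under isoflurane. Hibernating animals also carried implanted transmitters and were kept at a short photoperiod. These conditions likewise cannot be separated from the states. The labels give neither the age nor the sex of the animals.

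Cells build cholesterol from acetyl-CoA through the mevalonate pathway. FDPS, farnesyl diphosphate synthase, makes the farnesyl units from which sterols, dolichol, and prenyl groups all derive. FDFT1, squalene synthase, joins farnesyl units into squalene and so commits them to sterols. SC4MOL, also called MSMO1, removes methyl groups from the sterol nucleus late in the pathway. INSIG1 is a protein of the endoplasmic reticulum that, when sterols are plentiful, holds back the transcription factor SREBP and with it the genes of this pathway. INSIG1 is itself a known target of SREBP, and the liver is a major site of cholesterol synthesis.

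The array level of a gene is the log2 ratio of its background-subtracted signal to the median of all probes on the same membrane, so 0 is the level of the median probe. Levels of different probes are not compared, since each probe hybridizes with its own strength. The spots of all 4 genes were over 2 times their background on all 24 membranes, and none was marked as empty or saturated. Across membranes, the median signal was between 54.1 and 132 intensity units, and 8157 to 9197 of the probes were over 2 times background. Membranes came from 2 filter sets: all 9 T, 7 A, and 2 P membranes were of set A1, and 5 P membranes and late arousal replicate 2 were of set A2. The filter set therefore moved largely with the summer animals, and no T animal was on an A2 membrane. The prefix of the animal identifier did so too. It was 04 in all winter animals but late arousal replicate 4, early torpor replicate 4, and late torpor replicate 4. Among P animals only replicate 7 had the prefix 04. The labels do not say what the prefix means. With the states in the same fit, 1927 of 9596 probes (20.1%) differed between filter sets in limma at an adjusted p under 0.05. The 6 hepatocyte markers with a symbol (ALB, TTR, SERPINA1, APOA2, FGB, and PLG) were over 2 times background on every membrane. So were the stromal markers and the muscle markers MYL4, MYL7, TNNT2, and NPPA. The other muscle markers of the list, ACTA1 and DES, passed on 15 and 16 of the 24 membranes. Since muscle markers are among those that passed on every membrane, this limit cannot tell which tissue was sampled. In whole tissue, fewer cells of a type and less RNA per cell cannot be told apart.

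Symbols were available only for genes that the study had selected by a test over T, A, and P on these same membranes. According to the methods, where several probes shared a gene, the study kept the one with the lowest p-value of that test. Other probes of the 4 genes, if the array holds any, have no symbol here and are not described. Differences of the 4 genes between the 3 states are thus a description, and their adjusted p-values are not independent evidence. The stages within T and within A, the filter sets, and the variation between animals of 1 state were not used as such in that selection.

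All 4 genes had their highest mean level in P, and INSIG1 differed the most. INSIG1 was 4.22-fold lower in T and 2.84-fold lower in A than in P. SC4MOL was 2.71-fold lower in T and 2.48-fold lower in A, and FDPS was 1.93-fold lower in T and 1.99-fold lower in A. FDFT1 had the smallest differences, 1.44-fold in T and 1.59-fold in A. In limma, 3 of the 4 genes were called lower in T than in P at an adjusted p under 0.05 (all but FDFT1). In this comparison 9.86% of all probes were called in either direction and 4.36% as lower in T, and 21.7% of the genes with a symbol were called as lower. All 4 were called lower in A than in P, where 8.45% of all probes were called in either direction, 5.83% of all probes as lower in A, and 26.3% of the genes with a symbol as lower. Nothing is read from these counts, because the selection used the same states. The median change over all probes tested was -0.02 from P to T and -0.05 from P to A on the log2 scale, and the median over the 4 genes was -1.19 and -1.15. Both comparisons use the same 7 P membranes.

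**Figure D1:**
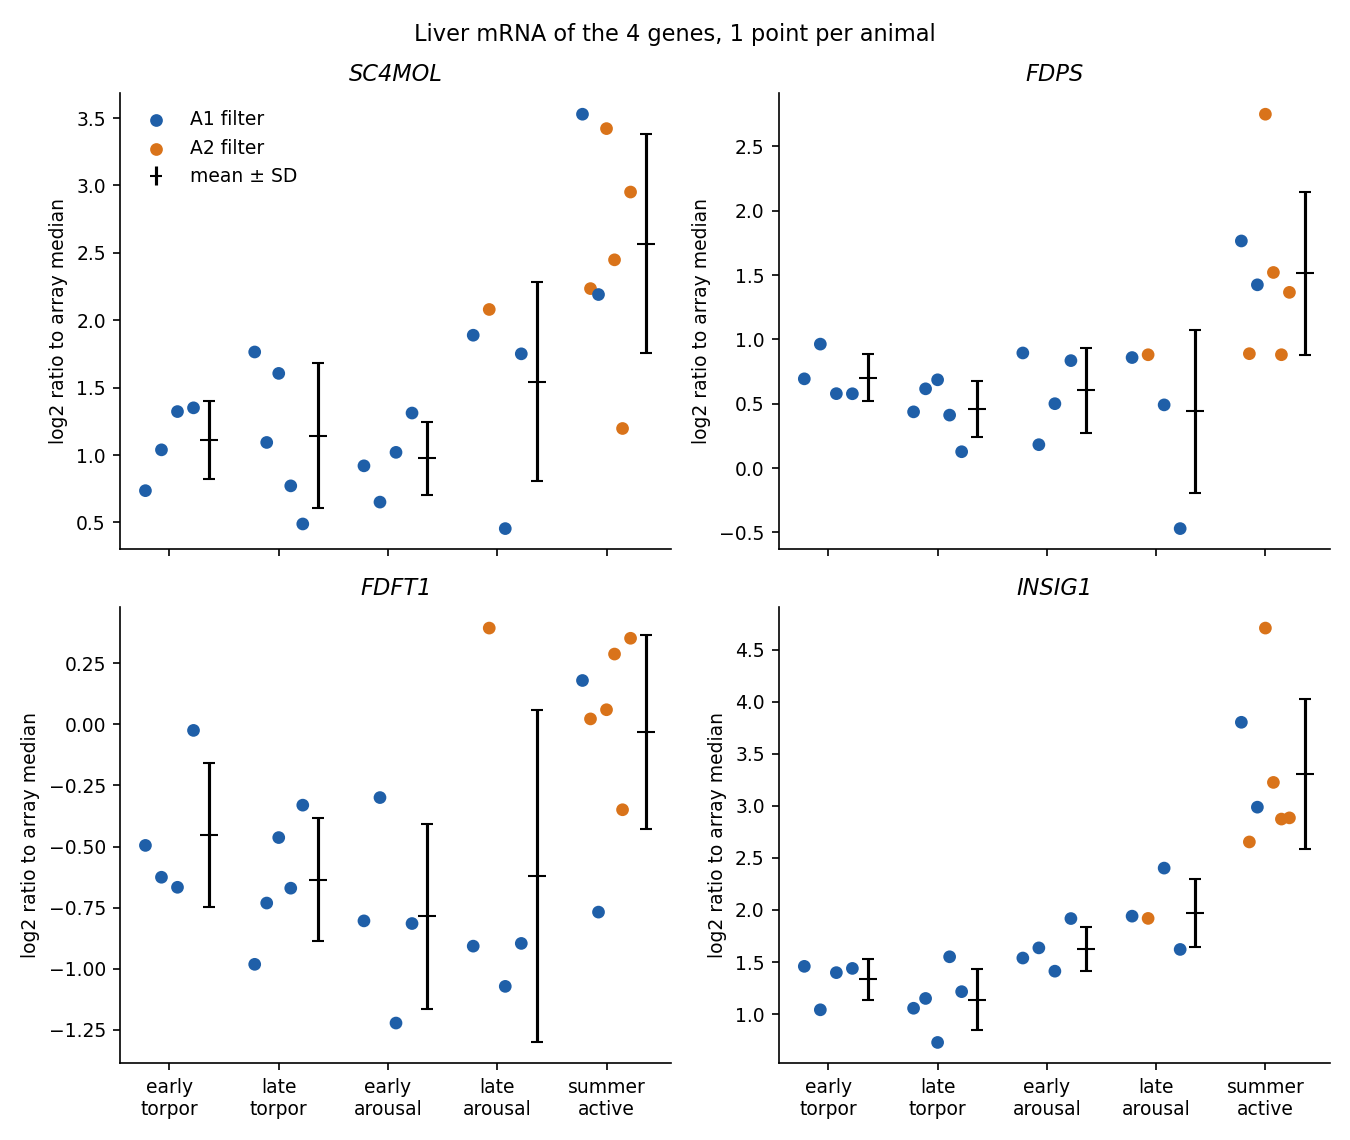
Log2 ratio of each gene to its array median (y axis) in the 5 groups (x axis), 1 point per animal, with blue points for A1 and orange points for A2 filters; black bars are the group mean ± SD. INSIG1 is the gene in which all 7 summer active points (2.65 to 4.71) lie above all 17 winter points, and the single orange point in late arousal is the highest of all FDFT1 values (0.39).

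FDPS, which supplies the farnesyl units, had winter levels mostly below those of P, and its SD was larger in A than in T. Its log2 ratio was 0.69, 0.96, 0.58, and 0.58 in early torpor and 0.44, 0.62, 0.69, 0.41, and 0.13 in late torpor. In early arousal the values were 0.89, 0.18, 0.50, and 0.83, and in late arousal 0.86, 0.88, 0.49, and -0.47. The last of these, late arousal replicate 4, lay apart from the next lowest A value of 0.18 and widens the SD of A. The local background of its spot was 36.4, against a median background of 14.6 on that membrane. The P animals ranged from 0.88 to 2.75 with a median of 1.42. Thus 8 of the 9 T animals and 7 of the 8 A animals lay below the lowest P animal, while the ranges overlapped in both comparisons. The mean ± SD of FDPS was 0.57 ± 0.23 over the 9 T animals, 0.52 ± 0.48 over the 8 A animals, and 1.51 ± 0.63 over the 7 P animals. The difference from P was -0.95 (SE 0.22, limma adjusted p = 0.00883) in T and -0.99 (SE 0.23, limma adjusted p = 0.00866) in A. Blocking on the filter set, these became -0.89 (limma adjusted p = 0.225) and -0.94 (limma adjusted p = 0.0873), and on the A1 membranes alone -1.03 (limma adjusted p = 0.111) and -1.12 (limma adjusted p = 0.0743). Neither difference was called under these settings, and the A1 values rest on 2 P animals.

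FDFT1, which commits farnesyl units to squalene, was the least changed of the 4. Its log2 ratio was -0.50, -0.63, -0.67, and -0.02 in early torpor and -0.98, -0.73, -0.46, -0.67, and -0.33 in late torpor. It was -0.80, -0.30, -1.22, and -0.82 in early arousal, and -0.91, 0.39, -1.07, and -0.90 in late arousal. In P it ranged from -0.77 to 0.35 with a median of 0.06. All states overlapped, and the highest value of the 24 was that of late arousal replicate 2, the only A animal on an A2 filter. The mean ± SD of FDFT1 was -0.55 ± 0.27 over the 9 T animals, -0.70 ± 0.52 over the 8 A animals, and -0.03 ± 0.40 over the 7 P animals. The difference from P was -0.52 (SE 0.20, limma adjusted p = 0.0947) in T and -0.67 (SE 0.21, limma adjusted p = 0.0420) in A. When the fit blocked on filter set, the difference was -0.02 (limma adjusted p = 0.994) in T and -0.26 (limma adjusted p = 0.738) in A. The A1 membranes alone gave -0.26 (limma adjusted p = 0.894) in T and -0.57 (limma adjusted p = 0.451) in A.

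SC4MOL, which acts late in the pathway, spread widely in P. Its log2 ratio was 0.74, 1.04, 1.32, and 1.35 in early torpor and 1.76, 1.09, 1.61, 0.77, and 0.49 in late torpor. It was 0.92, 0.65, 1.02, and 1.31 in early arousal and 1.89, 2.08, 0.45, and 1.75 in late arousal, where replicate 3 had the lowest value of the 24 animals. In P it ranged from 1.20 to 3.53 with a median of 2.45. Of the 7 P animals, 6 lay above every T animal and 6 above every A animal, and the exception in both was replicate 6. The mean ± SD of SC4MOL was 1.13 ± 0.42 over the 9 T animals, 1.26 ± 0.60 over the 8 A animals, and 2.57 ± 0.81 over the 7 P animals. The difference from P was -1.44 (SE 0.29, limma adjusted p = 0.00276) in T and -1.31 (SE 0.29, limma adjusted p = 0.00750) in A. After blocking on filter set, it was -1.36 (limma adjusted p = 0.0953) and -1.25 (limma adjusted p = 0.0718). The A1 membranes alone gave -1.73 (limma adjusted p = 0.0235) and -1.72 (limma adjusted p = 0.0310), with 2 P animals.

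INSIG1, the sterol sensor, had narrow winter groups and a high P group. Its log2 ratio was 1.46, 1.04, 1.40, and 1.44 in early torpor and 1.06, 1.15, 0.73, 1.55, and 1.22 in late torpor. It was 1.54, 1.64, 1.41, and 1.92 in early arousal, and 1.94, 1.92, 2.40, and 1.62 in late arousal. In P it ranged from 2.65 to 4.71 with a median of 2.99. Every T animal and every A animal lay below every P animal. INSIG1 was the 1 gene of the 4 for which this held, and over the array T lay wholly below P for 0.371% of probes and A for 0.795%. The mean ± SD was 1.23 ± 0.26 over the 9 T animals, 1.80 ± 0.31 over the 8 A animals, and 3.30 ± 0.72 over the 7 P animals. The difference from P was -2.08 (SE 0.22, limma adjusted p = 1.84e-06) in T and -1.51 (SE 0.23, limma adjusted p = 0.000191) in A. INSIG1 was also the gene whose calls remained after blocking on filter set, at -2.10 (limma adjusted p = 0.000490) in T and -1.52 (limma adjusted p = 0.00314) in A, where 0.969% and 2.7% of all probes were called. The A1 membranes alone gave -2.17 (limma adjusted p = 0.000173) and -1.61 (limma adjusted p = 0.00442), against 0.896% and 0.876% of probes called.

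**Figure D2:**
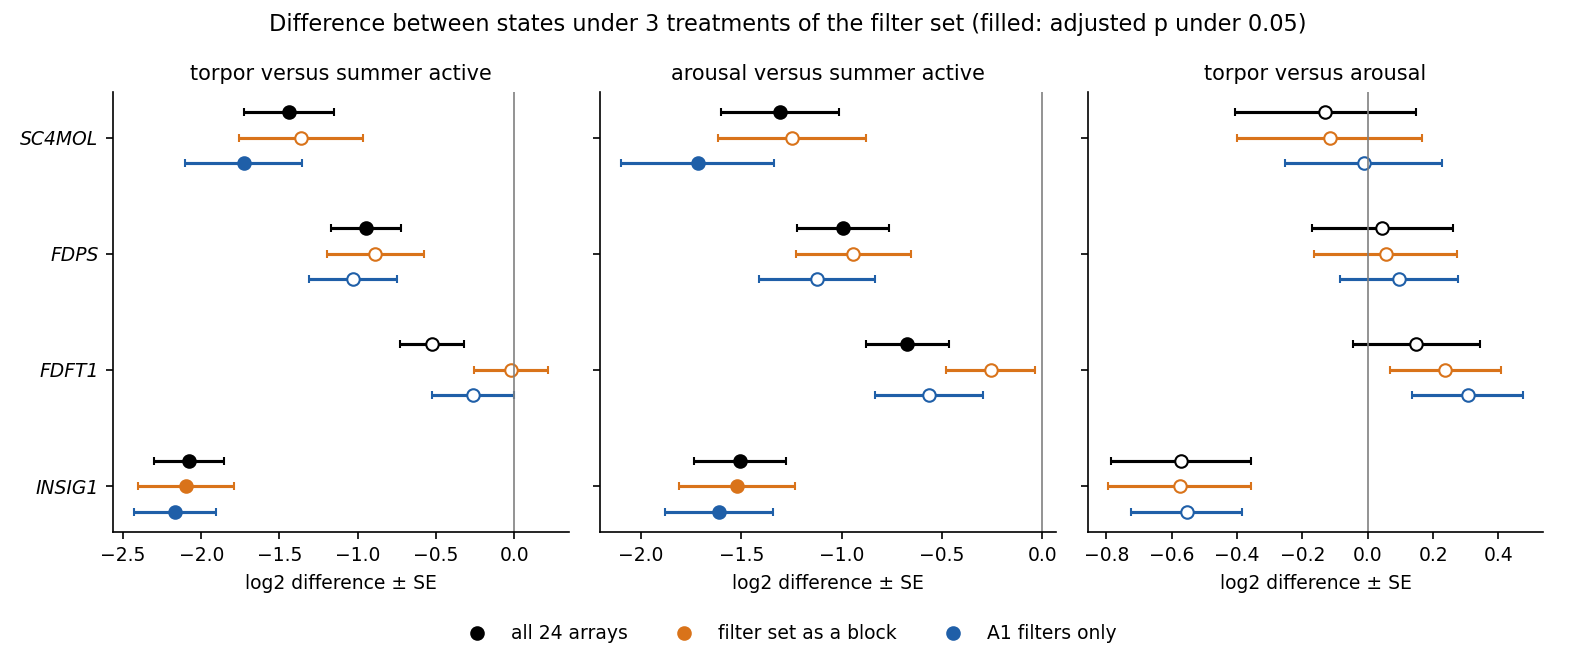
Log2 difference ± SE (x axis) of each gene (y axis) in the 3 comparisons of states, from all 24 arrays (black), blocked on filter set (orange), and on A1 filters only (blue); filled points have an adjusted p under 0.05. INSIG1 stays near -2.1 in T and -1.5 in A under all 3, while FDFT1 in T moves from -0.52 to -0.02 with the block.

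The filter sets were compared with the states in the same fit, and FDFT1 was the 1 gene of the 4 that was called. FDFT1 was higher on A2 than on A1 membranes by 0.71 (SE 0.23, limma adjusted p = 0.0289). Without late arousal replicate 2, the difference rests on P alone and was 0.37 (SE 0.27, limma adjusted p = 0.444), and without summer active replicate 3 it was 0.59 (SE 0.27, limma adjusted p = 0.136). No animal was on both filter sets, so filter set and animal cannot be told apart. The corresponding differences were 0.10 (SE 0.38, limma adjusted p = 0.884) for SC4MOL, 0.09 (SE 0.29, limma adjusted p = 0.875) for FDPS, and -0.03 (SE 0.29, limma adjusted p = 0.964) for INSIG1. Within P, FDFT1 averaged -0.29 on the 2 A1 membranes, with values of 0.18 and -0.77, and 0.08 ± 0.28 (SD, n = 5) on A2. INSIG1 averaged 3.39 and 3.27 ± 0.83 (SD, n = 5) on the same sets of P membranes. Late arousal without replicate 2 had an FDFT1 mean of -0.96 ± 0.10 (SD, n = 3).

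Between T and A, none of the 4 genes was called, where 0.469% of all probes and 2.33% of the genes with a symbol were. At an unadjusted p under 0.05, INSIG1 alone passed, and 14.1% of all probes did. INSIG1 was lower in T than in A by 0.57 (SE 0.21, limma unadjusted p = 0.0128, adjusted p = 0.206), and 6 of the 8 A animals lay above the highest T animal. The methods' test, an analysis of variance followed by a Tukey comparison, put INSIG1 past its threshold here. The differences of the enzymes were smaller than their spread, at -0.13 (SE 0.28) for SC4MOL, 0.04 (SE 0.22) for FDPS, and 0.15 (SE 0.19) for FDFT1.

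The 5 groups allowed the torpor-arousal cycle to be followed stage by stage. INSIG1 had its lowest mean in late torpor, 1.14 ± 0.30 (SD, n = 5), followed by early torpor at 1.33 ± 0.20 (SD, n = 4), early arousal at 1.63 ± 0.21 (SD, n = 4), and late arousal at 1.97 ± 0.32 (SD, n = 4). In limma the step from late torpor to early arousal was 0.49 (SE 0.30, adjusted p = 0.552), and that from early to late arousal was 0.34 (SE 0.31, adjusted p = 0.831). From late arousal to early torpor INSIG1 was lower by 0.64 (SE 0.31, limma unadjusted p = 0.0535, adjusted p = 0.628). No early torpor animal reached the lowest late arousal animal (1.46 against 1.62), a separation in this direction that 2.75% of all probes had. None of these steps passed after adjustment over all probes, which does not show that the stages are alike. Without the P membranes in the fit, the step from late torpor to early arousal was 0.49 (SE 0.21, limma unadjusted p = 0.0305, adjusted p = 0.320) and that from late arousal to early torpor -0.64 (SE 0.22, limma unadjusted p = 0.00900, adjusted p = 0.377). An unadjusted p under 0.05 was then reached by 13.2% and 8.64% of probes. Both steps of INSIG1 were also under this limit on A1 filters only (limma unadjusted p = 0.0392 and 0.0169), where 15.5% and 8.17% of probes were, and with quantile normalization (limma unadjusted p = 0.0234 and 0.0278), where 8.86% and 7.46% were. Early torpor and early arousal, which are neighbours in the order of means, were not compared.

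Among the enzymes, SC4MOL had its lowest winter mean in early arousal, 0.98 ± 0.27 (SD, n = 4), and its highest in late arousal, 1.54 ± 0.74 (SD, n = 4). This step of 0.57 (SE 0.40, limma adjusted p = 0.772) was within the spread of the late arousal animals. FDPS ran from 0.44 ± 0.63 (SD, n = 4) in late arousal to 0.70 ± 0.18 (SD, n = 4) in early torpor, a step of 0.26 (SE 0.32, limma adjusted p = 0.874). Without late arousal replicate 4, this FDPS step was -0.04 and that from early to late arousal was 0.14, so the low place of late arousal rests on that animal. FDFT1 ran from -0.79 ± 0.38 (SD, n = 4) in early arousal to -0.45 ± 0.30 (SD, n = 4) in early torpor, with late arousal at -0.62 and late torpor at -0.64 between them. Without late arousal replicate 2, the winter animal on an A2 filter, FDFT1 changed by -0.17 from early to late arousal, and late arousal was then lowest. In the fit of all membranes, none of the 4 genes was called in any of the 4 steps by limma, nor at an unadjusted p under 0.05. When late arousal replicate 3 was left out, the step of SC4MOL from early to late arousal was 0.93 (SE 0.40, limma unadjusted p = 0.0283, adjusted p = 0.532). Over all probes 64 of 9593 (0.667%) were called from late torpor to early arousal and 0 in each of the other 3 steps. An unadjusted p under 0.05 was reached by 12.8% of probes in the first of these, and by 747 probes (7.79%) from early to late arousal, 769 (8.02%) from late arousal to early torpor, and 457 (4.76%) from early to late torpor. The early-to-late change in torpor was also set against that in arousal, and this interaction was called for none of the 4 (lowest limma adjusted p = 0.888, INSIG1).

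**Figure D3:**
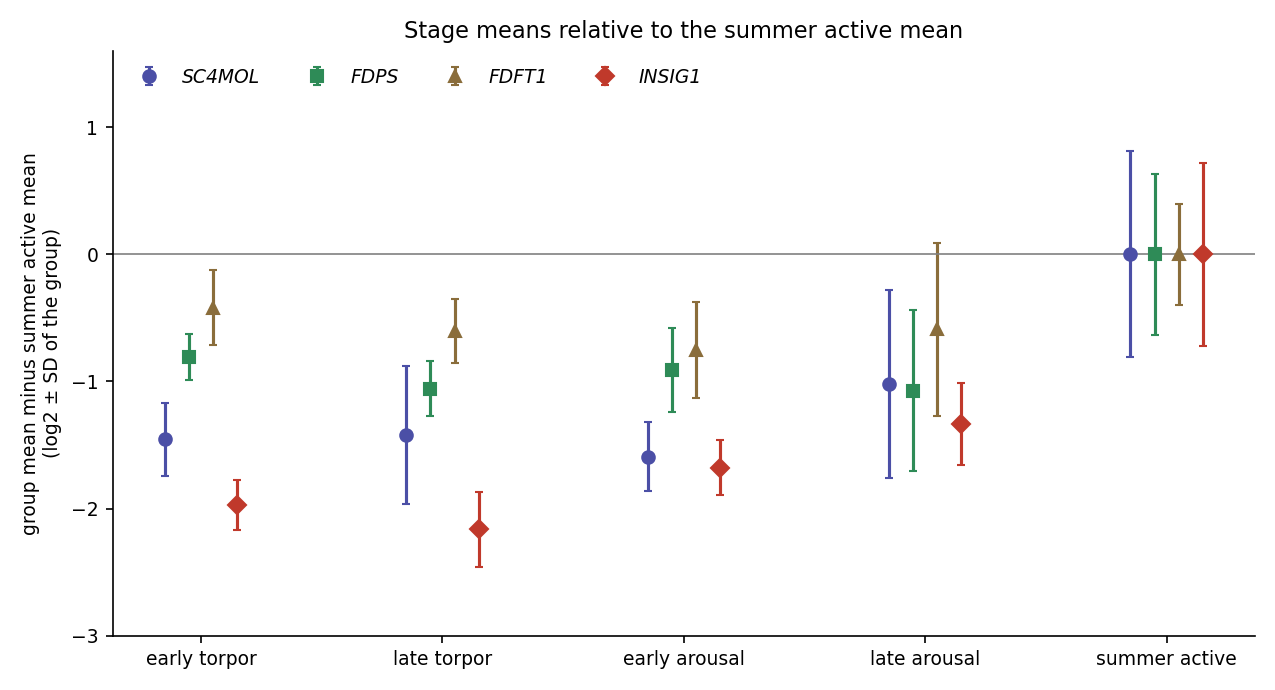
Group mean minus the summer active mean on the log2 scale (y axis) for each gene in the 5 groups (x axis); bars are the SD of the group. The INSIG1 mean (red diamonds) lies lowest in late torpor and nearest to the summer active mean in late arousal among the winter groups, with steps that did not pass the test.

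Variation between animals of 1 state was compared for the 6 pairs of the 4 genes, within T, within A, within P, and over deviations from the mean of each state and filter set. These 24 relations were adjusted together. Within P, FDPS and INSIG1 varied together, with Pearson's r = 0.96 over n = 7 (exact permutation p = 0.000397, adjusted p = 0.00952) and Spearman's rho = 0.96 (exact permutation p = 0.00278, adjusted p = 0.0667). Summer active replicate 4 had the highest level of both genes, 2.75 for FDPS and 4.71 for INSIG1, and replicate 1 was the next highest in both, at 1.76 and 3.80. Without the 2 animals farthest from the median in FDPS, r was 0.90. When 1 P animal was left out at a time, r lay between 0.85 and 0.97, and the adjusted exact permutation p was above 0.05 in 5 of the 7 cases, reaching 0.467 without replicate 4. With 6 animals few pairings exist, which limits how low this p can be. A call can thus be lost through the smaller number of animals alone. The 7 P animals include 2 on A1 and 5 on A2 filters, and a set with fewer than 6 animals was given no r.

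SC4MOL also varied in the same direction as FDPS (r = 0.76, exact permutation p = 0.0405, adjusted p = 0.336) and INSIG1 (r = 0.70, exact permutation p = 0.0847, adjusted p = 0.508) within P, and neither relation held after adjustment. In T the r of FDPS and INSIG1 was -0.26 over 9 animals and in A it was 0.24 over 8, and the difference of these from P was not tested. In T the pair farthest from 0 was SC4MOL and INSIG1 (r = -0.50, exact permutation p = 0.165, adjusted p = 0.661). Over deviations from the mean of each state and filter set, none of the 6 pairs passed, and FDPS with INSIG1 came nearest (n = 23, r = 0.63, permutation p = 0.0419, adjusted p = 0.336, rho = 0.35). That r fell to 0.36 without the 2 animals farthest from the median in FDPS, so it rests on them. FDFT1 had r = 0.09 with FDPS, 0.17 with INSIG1, and 0.26 with SC4MOL. The 2 animals farthest from the median in 1 gene of each pair were then left out. That gene was SC4MOL in its pairs, FDPS with FDFT1 or INSIG1, and FDFT1 with INSIG1. The 6 pairs then ran from -0.05 (SC4MOL with INSIG1) to 0.36, and the 3 pairs with FDFT1 lay between 0.13 and 0.20.

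**Figure D4:**
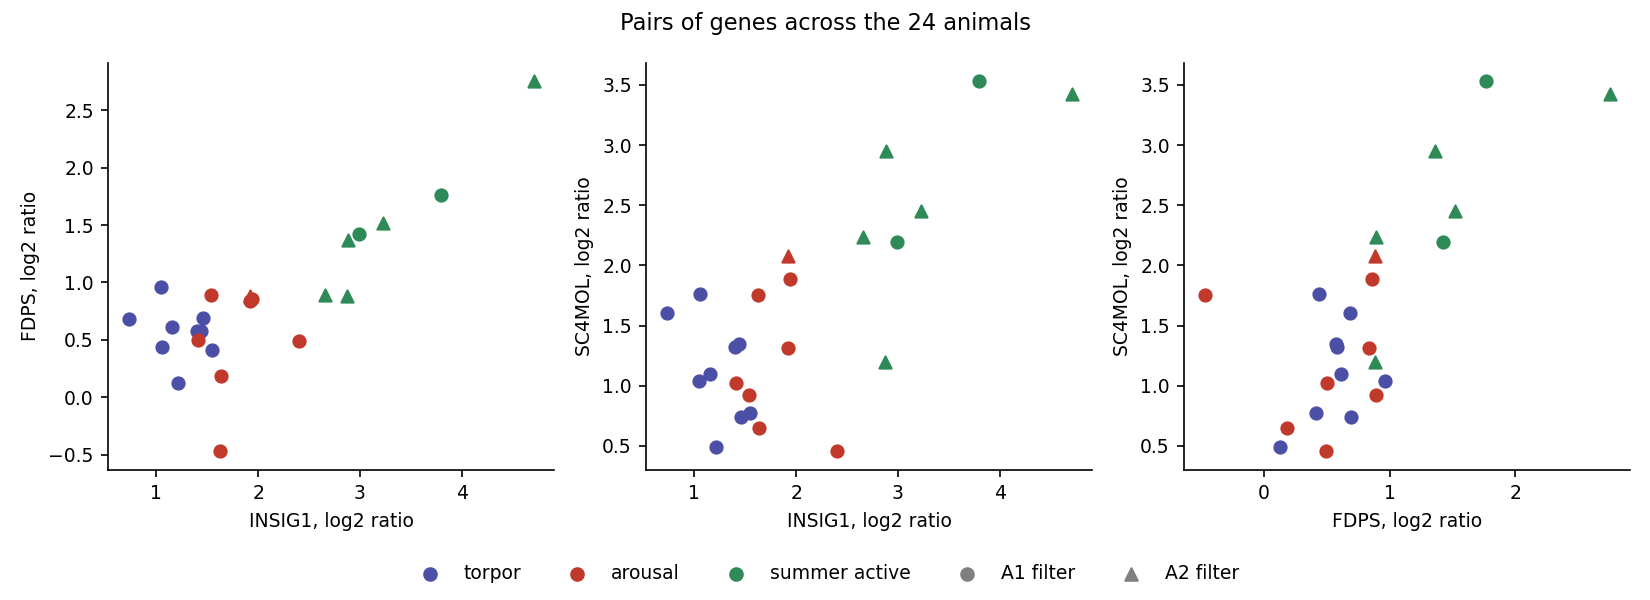
Levels of pairs of genes (log2 ratio on both axes), 1 point per animal, coloured by state, with circles for A1 and triangles for A2 filters. In the FDPS and INSIG1 panel the 7 summer active points rise together (r = 0.96), and the uppermost is replicate 4 at 2.75 and 4.71, while torpor and arousal points form a cloud.

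To place this variation among other genes, the genes with a symbol whose deviations were most like each member were taken, with Pearson's r over the same 23 animals as a description. For INSIG1 these were DHDH (r = 0.73), ACADS, a dehydrogenase of short-chain fatty acids (r = 0.68), and ELOVL5, an elongase of polyunsaturated fatty acids (r = 0.63). For SC4MOL they were LOC728198 (r = 0.68), SDCCAG10 (r = 0.61), and ELOVL6, an elongase of saturated fatty acids (r = 0.61). For FDPS they were NDUFA4, a respiratory chain protein (r = 0.68), PPP1R1B (r = 0.63), and PDCD5 (r = 0.60). For FDFT1 they were C12orf26 (r = 0.67), UQCRC2, a subunit of respiratory complex III (r = 0.62), and MRPS23, a mitochondrial ribosomal protein (r = 0.62). An r over 0.5 with a member was reached by 124 to 158 of 9416 probes for each gene, and the points share the membrane and its scaling. Within T alone, FDPS and PPP1R1B had r = -0.43, while the other named pairs were above 0. The highest r with an adjacent spot was 0.66 for FDPS, 0.61 for FDFT1, 0.39 for INSIG1, and 0.37 for SC4MOL. The part of spot position in these values was not tested.

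Of the other sterol genes, 5 are described (ACAT2, HMGCS1, EBP, C14orf1, and GGPS1), chosen with earlier results known and drawn from the same selected genes. They do not cover every gene of the pathway, and their counts hold for the genes reported here alone. Of these 5, 4 were called lower in T than in P, against 4.36% of all probes and 21.7% of the genes with a symbol. ACAT2 and HMGCS1, which carry out the first steps from acetyl-CoA toward mevalonate, differed by -1.06 (SE 0.29) and -1.44 (SE 0.42). EBP, which moves a double bond of the sterol nucleus, and C14orf1, also called ERG28, which is thought to hold the demethylating enzymes together, differed by -0.78 (SE 0.25) and -0.62 (SE 0.20). GGPS1, which turns farnesyl diphosphate into the geranylgeranyl units used for protein prenylation, was higher in T by 1.15 (SE 0.22, limma adjusted p = 0.00222).

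In A, 5.83% of all probes and 26.3% of the genes with a symbol were called lower than in P. Of the 5 sterol genes, 3 were called lower, namely ACAT2 at -1.73 (SE 0.30), EBP at -1.19 (SE 0.26), and C14orf1 at -0.88 (SE 0.21). HMGCS1 at -0.91 (SE 0.43, limma adjusted p = 0.176) and GGPS1 at 0.64 (SE 0.23, limma adjusted p = 0.0789) were not called. The median of the 5 was -0.78 in T and -0.91 in A. After blocking on filter set, 0 of the 5 were called in T, where 93 of 9595 probes (0.969%) were, and 2 (ACAT2 and EBP) in A, where 2.7% of probes were. On A1 filters only, 0 of the 5 were called in T and 0 in A, against 0.896% and 0.876% of probes. The GGPS1 difference was 0.46 in T and 0.07 in A with the block.

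INSIG2, the second INSIG protein and a partner in holding back SREBP, went the other way from INSIG1. It was higher in T than in P by 1.85 (SE 0.39, limma adjusted p = 0.00411), at 3.47 ± 0.84 (SD, n = 9) against 1.63 ± 0.62 (SD, n = 7). In A it was 2.76 ± 1.01 (SD, n = 8), a difference of 1.13 (SE 0.40, limma adjusted p = 0.0738). Blocked on filter set, the difference was 1.73 (limma adjusted p = 0.132) in T and 1.04 (limma adjusted p = 0.381) in A, and on A1 filters only 1.64 (limma adjusted p = 0.385) and 0.92 (limma adjusted p = 0.669). Over deviations within state and filter set, INSIG2 had r = 0.13 with INSIG1 (n = 23).

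Genes of fatty acid synthesis are also regulated by SREBP, and 7 are described, which do not cover every gene of fatty acid synthesis. Each was called lower in T, against 4.36% of all probes and 21.7% of the genes with a symbol, and in A, against 5.83% and 26.3%. Their median was -2.09 in T and -2.58 in A, and the difference from the 4 genes was not tested. The smallest difference was that of ELOVL5, at -1.32 in T and -1.74 in A. In T, those of SC4MOL (-1.44) and INSIG1 (-2.08) were larger. INSIG1 in T also exceeded THRSP (-1.89) and GPAM (-1.95). In A, none of the 4 genes had a larger difference than ELOVL5. The largest difference was that of ELOVL6, at -4.18 (SE 0.44) in T and -4.18 (SE 0.45) in A, and FASN, fatty acid synthase, differed by -2.09 (SE 0.31) and -2.42 (SE 0.31). After blocking on filter set, 5 of the 7 were called in T, against 0.969% of probes, and 7 in A, against 2.7%. On A1 filters only, 3 of the 7 were called in T and 6 in A, against 0.896% and 0.876% of probes. With the block and on A1 filters, here and for the other lists, the share is over all probes. The share over the genes with a symbol, which the study had selected over these states, is not given for these settings. In deviations between animals (n = 23), r with these 7 genes ran from 0.02 (ELOVL5) to 0.61 (ELOVL6) for SC4MOL and from 0.03 (SCD) to 0.48 (ELOVL5) for FDPS. It ran from 0.07 (ELOVL5) to 0.61 (SCD) for FDFT1 and from 0.29 (SCD) to 0.63 (ELOVL5) for INSIG1.

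Genes of bile acid synthesis and cholesterol disposal were described in the same way. In T against P, 9.86% of all probes and 47.3% of the genes with a symbol were called in either direction. Of the 11 in the list, 2 were called lower (CES1 and SLC27A5) and 1 higher (APOB) in T than in P, and the median of the 11 was -0.42. With the filter set as a block none of these calls was left, at a limma adjusted p of 0.0895 for CES1, 0.125 for SLC27A5, and 0.517 for APOB, and 0 of the 11 were called on A1 filters only. In A, 8 of the 11 were called lower, against 5.83% of all probes and 26.3% of the genes with a symbol, with a median of -1.001. CES1, a carboxylesterase that can hydrolyse cholesteryl esters, differed by -1.57 (SE 0.28), and ABCB11, the bile salt export pump, by -1.33 (SE 0.29). After blocking, 6 of the 11 were called in A, against 2.7% of probes. Among them was CES1 at -1.86 (limma adjusted p = 0.00253) but not ABCB11 at -1.15 (limma adjusted p = 0.0905). On A1 filters only, 1 of the 11 (ACOX2) was called in A, against 0.876% of probes.

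Of 6 hepatocyte markers, 3 (TTR, SERPINA1, and APOA2) were called lower in A than in P and 1 (FGB) in T. Among all genes with a symbol, 26.3% were called lower in A and 21.7% in T. In either direction 38.4% were called in A and 47.3% in T, and nothing is read from the marker counts. With the filter block 2 of the 6 hepatocyte markers were called in A and 0 in T, and on A1 filters 0 in either. Their summed ratio was 389 to 687 in A, 600 to 914 in P, and 444 to 1259 in T. Over all probes, 2.7% were called in A and 0.969% in T with the block, and 0.876% and 0.896% on A1 filters. Of 3 stromal markers (DCN, LUM, and PCOLCE), DCN was called higher in T and LUM lower in A, and 0 were called with the block or on A1 filters. Their summed ratio was 1.78 to 3.61 in T, 2.06 to 3.01 in A, and 2.20 to 3.75 in P. Of 4 immune markers (LYZ, LAPTM5, IGJ, and CD27), LAPTM5 was called higher and IGJ lower (-1.78) in T, and LYZ and IGJ (-1.71) were called lower in A. With the block 0 of the 4 were called in T and 1 (IGJ) in A, and on A1 filters IGJ was called lower in both. Their summed ratio was 6.22 to 22.8 in T, 5.58 to 10.9 in A, and 6.27 to 38.1 in P. The summed ratios overlapped between all states, and the part of these markers in the values of the lipid genes was not tested.

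**Figure D5:**
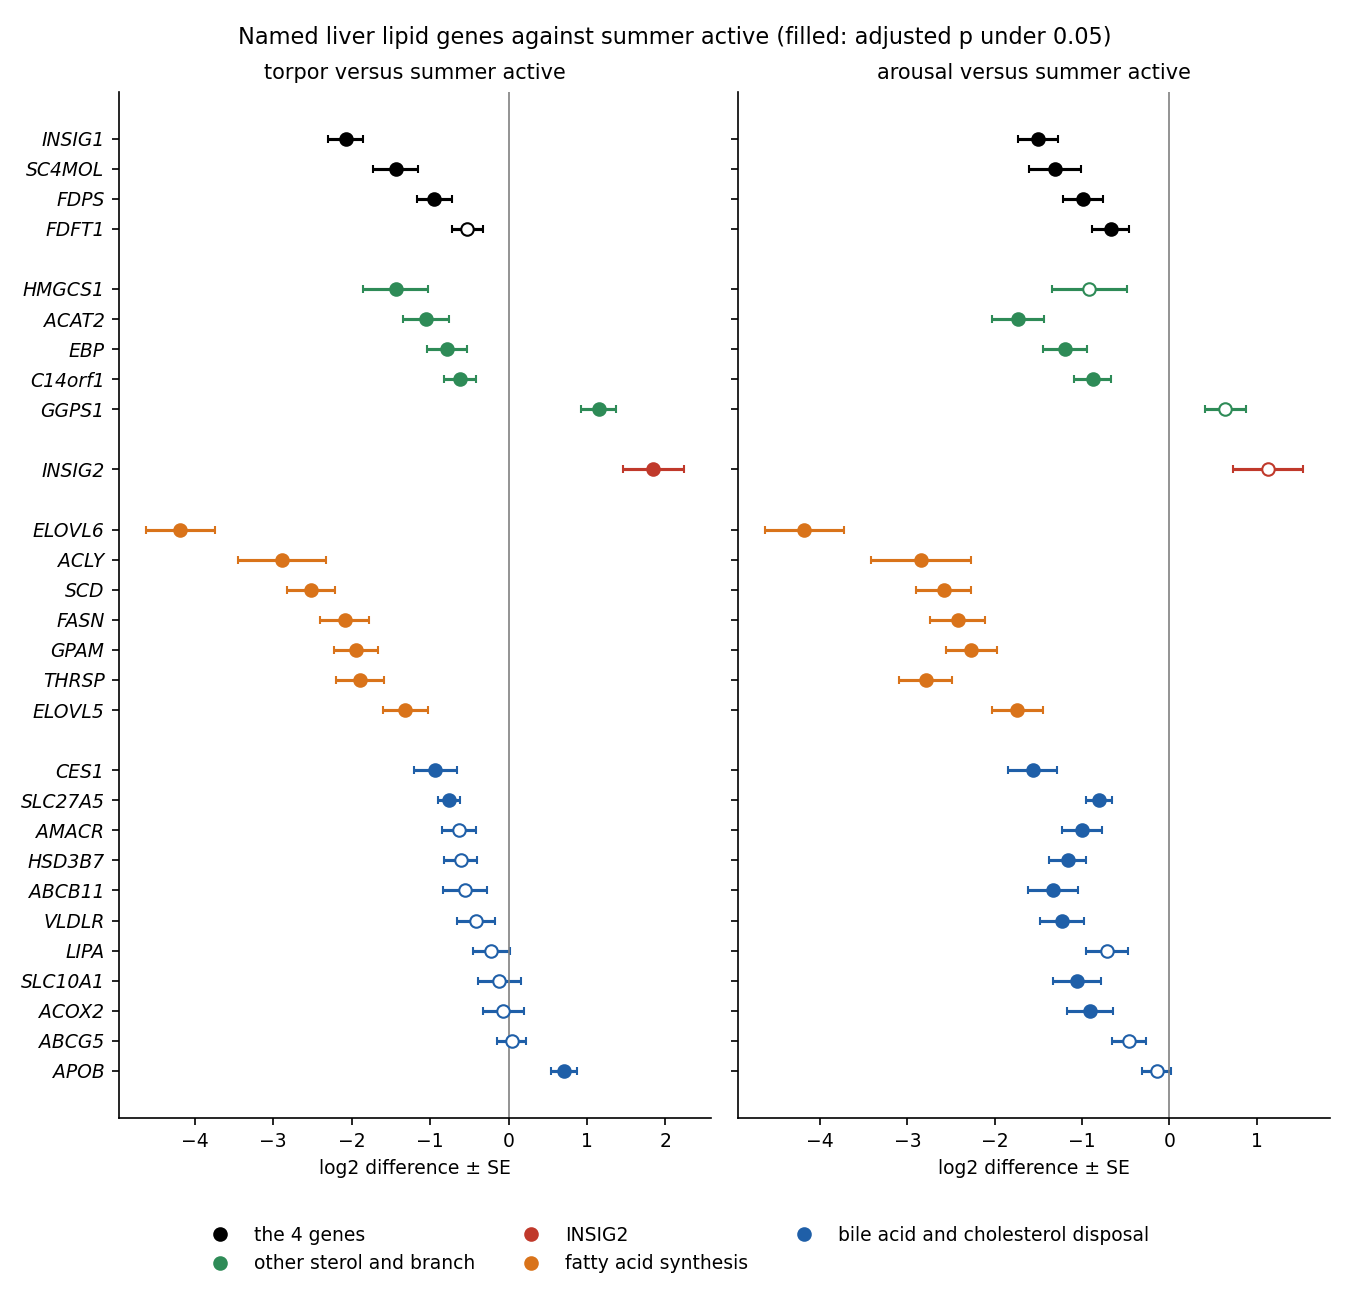
Log2 difference ± SE (x axis) from summer active for each named gene (y axis), in torpor (left) and arousal (right), coloured by list; filled points have an adjusted p under 0.05 in the fit of all arrays. INSIG1 (-2.08) and INSIG2 (1.85) lie on opposite sides of 0 in torpor, and ELOVL6 (-4.18) lies farthest to the left.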

How the data were processed

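Liver RNA of 24 AGS was amplified, labelled with a radioactive nucleotide, and hybridized in 1 batch. The authors scanned the membranes and read them with ImaGene 6.1.0. The deposited scanner files give median spot intensity and median local background intensity, and the deposited table holds the ratio of the background-subtracted intensity to its array median. The ratio was recomputed from the intensities and tested as log2, with values at or below 0 as missing; the deposited ratios differed from it by less than 5e-07 off their floor of 0.002. Only the state means of the authors' gene list were used, to pair its 1329 symbols with probes (within 1e-04). Its fold changes and p-values were not used.

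limma 3.58.1 (R 4.3.3) was fitted over 3 states, or over 5 groups for the stages, with Benjamini-Hochberg adjustment over all probes tested. This replaced the analysis of variance of the study's methods, kept as an alternative. The fit was tested on simulated data. Correlations were tested by exact permutation of pairings within a state or by 100000 permutations within states and filter sets, 2-sided (scipy 1.17.1, numpy 2.4.6, pandas 2.3.3, matplotlib 3.10.9). Named are the 4 genes, the listed lipid genes, and for each of the 4 the 3 genes with the most similar deviations. Members and lists were chosen with earlier results of these data known, and some genes of the pathway are not reported here. Alternatives were normexp, quantile normalization, the floor, the deposited ratio, dim probes left out, filter set or identifier prefix as a block, A1 filters only, winter arrays only, the methods' test, 5 groups, and each array left out. The number of arrays limits the precision.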

Additional observations from a re-analysis of the deposited data

Results flagged for a closer look

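A single animal lay far from the rest of its group in 2 of 28 combinations of gene and group, and chance alone flags about 1 in 20. FDFT1 in late arousal replicate 2 was 0.39, while the other 3 late arousal animals were between -1.07 and -0.90. That membrane is also the only one of the A2 filter set among the winter animals, so filter set and animal cannot be told apart in this value. INSIG1 in early torpor replicate 2 was 1.04, while the other 3 early torpor animals were between 1.40 and 1.46.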

How the results depend on the processing

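Against summer active, none of the 4 genes changed direction under any of the alternatives run. The calls changed more. Blocking on the filter set, 1 of the 4 genes was called in T and 1 in A, INSIG1 in both. On A1 filters only, 2 were called in A, and with the identifier prefix as a block 2 were called in A, where SC4MOL (-1.31, adjusted p = 0.0606) and FDFT1 (-0.71, adjusted p = 0.144) were lost. The methods' test called 1 gene, INSIG1, between T and A, and it also called FDFT1 between T and P. Leaving out 1 array at a time gave 3 to 4 genes called in T and in A against P, and 0 in T against A and in each stage comparison. The call of FDFT1 in A was lost in 11 of these 24 fits, with an adjusted p between 0.00347 and 0.0946, and FDFT1 in T was called without late arousal replicate 2 (adjusted p = 0.0416) and without summer active replicate 3 (adjusted p = 0.0294). Counts over all probes moved too. From 946 in T against P, they fell to 93 with the filter block, 86 on A1 filters, 524 with the prefix block, and 543 with normexp. From 811 in A against P, they went to 259, 84, 240, and 1752 under the same settings and 1263 by the methods' test. From 45 in T against A, they went to 124 with the filter block, 132 on A1 filters, 17 with quantile normalization, and 597 by the methods' test. From 64 from late torpor to early arousal, they went to 709 with normexp, 2 with quantile normalization, 148 with the filter block, 140 on A1 filters, and 28 with the prefix block, and the other stage comparisons had at most 1 under these settings. Leaving out 1 array at a time gave 547 (without summer active replicate 5) to 1490 (without replicate 1) in T against P and 476 (without summer active replicate 5) to 1540 (without late arousal replicate 2) in A against P. It gave 24 (without late torpor replicate 5) to 101 (without late arousal replicate 2) in T against A, and 11 (without early arousal replicate 1) to 92 (without late arousal replicate 2) from late torpor to early arousal. These counts moved by over 1.5 times for 6, 6, 7, and 12 of the 24 arrays, so the shares over all probes are uncertain to this extent. From late arousal to early torpor it gave 0 to 4. The FDFT1 difference between filter sets, run with each array left out after the data were seen, ran from 0.37 to 1.05.

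Signs turned only in small differences that were not called. FDPS in T against A was -0.0235 with normexp and -0.0257 with quantile normalization, and SC4MOL from early to late torpor was -0.0137 with normexp. FDFT1 from early to late arousal was -0.0122 with the filter block and -0.17 on A1 filters. With 1 array left out, FDPS in T against A ran from -0.0976 to 0.0989, SC4MOL from early to late torpor from -0.12 to 0.20, FDFT1 from early to late arousal from -0.17 to 0.33, FDPS from early to late arousal from -0.31 to 0.14, and FDPS from late arousal to early torpor from -0.0404 to 0.41. The cause was not tested. Of the pairs of genes over deviations, 0 of 6 passed under the alternatives run. SC4MOL with INSIG1 had r = -0.0451 on A1 filters, and its r ran from -0.00831 to 0.45 with 1 array left out, while that of FDPS with FDFT1 ran from -0.0298 to 0.17. No paired analysis was possible because each membrane held a different animal and replicate numbers were given in accession order. Promoter motifs were not searched, because promoter sequences were not used here. The 2 P animals on A1 filters and the few A2 membranes limit what can be said within a filter set.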
